A study of Mus musculus with 16 samples.

Results

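Immediate early and stress response genes were measured by RNA-Seq in 4 subsets of splenic B-cells: transitional 1 (T1), transitional 2 (T2), marginal zone (MZ) and follicular (FO) B-cells. The group holds 37 genes chosen by symbol, of 38355 genes in the deposited table, and 36 of them passed the filter for testing (mean RPKM over 1 in at least 1 group), as did 12507 genes in all. RPKM scales the reads of a gene by its exon length and by the reads mapped in the library, so levels of different genes are compared per length. The wild-type (WT) libraries came from C57BL/6 mice and the KO libraries from mice of the same labelled background lacking miR-146a (labelled Mir-146a-/-) in all cells, so effects within the B-cell and effects from other cells cannot be told apart. Each of the 8 groups of genotype and subset had 2 replicate libraries, called replicate 1 and replicate 2 in the labels, and the cells were sorted by surface markers from spleens pooled from several mice. The 16 libraries therefore form 4 sets, WT replicate 1, WT replicate 2, KO replicate 1 and KO replicate 2, each with 1 library of each subset, and the labels give no date or batch for a set.

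Immediate early genes are transcribed within minutes of a stimulus from factors that are already in the cell, such as CREB and serum response factor, and their mRNAs are short-lived. Antigen receptor and Toll-like receptor signals induce them in B-cells, and handling of cells, such as tissue dissociation, is known to induce them as well. Heat shock genes answer unfolded protein through heat shock factor, and miR-146a is itself an NFkB target that dampens signalling towards NFkB. Among the members, Fos, Fosb, Jun, Junb, Jund, Atf3 and Maff encode AP-1 and related bZIP transcription factors, and Egr1, Egr2, Egr3, Nr4a1, Nr4a2, Nr4a3 and Csrnp1 encode other rapidly induced transcription factors. Dusp1, Dusp2 and Dusp5 encode phosphatases that switch off MAP kinases, Zfp36 and Zfp36l1 encode proteins that bind AU-rich mRNAs for decay, and Btg2 encodes an antiproliferative protein that recruits the deadenylase complex. Tnfaip3, Nfkbid, Socs3 and Trib1 encode regulators of NFkB, cytokine and kinase signalling. Cd69 encodes an activation marker at the cell surface, Rhob encodes a small GTPase, and Gadd45a, Gadd45b, Ppp1r15a, Plk2 and Plk3 belong to growth arrest and stress responses. Hspa1a and Hspa1b encode inducible Hsp70, Dnajb1 encodes its co-chaperone, and Ier2, Ier3 and Ier5 are further early response genes.

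The sequences below are shown because they are of the kinds through which this class of genes is known to be induced and its mRNAs cleared. RefSeq promoters (GRCm38.p6, 250 bases before to 50 bases after a start) were found for 32 of the 37 members, with no entry for Egr1, Egr3, Ier2, Trib1 and Cd69. The cyclic AMP response element TGACGTCA, the site of CREB and ATF proteins, was searched on both strands and was in a promoter of 6 of 32 members (18.8%), against 301 of 8118 tested genes with a promoter entry (3.71%) and 1.79% of all 32851 promoters. These windows are 30 bases long on the strand of the gene, with the element in capitals.
Btg2 (chr1:134079303-134079332, - strand): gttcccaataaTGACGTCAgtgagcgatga
Dusp1 (chr17:26508597-26508626, - strand): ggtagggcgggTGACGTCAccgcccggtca
Maff (chr15:79347480-79347509, + strand): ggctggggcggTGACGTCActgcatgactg
Nfkbid (chr7:30422344-30422373, + strand): cgttagcgccgTGACGTCAgcgcgcggcgt
Plk2 (chr13:110394971-110395000, + strand): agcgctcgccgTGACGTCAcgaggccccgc
Ppp1r15a (chr7:45526262-45526291, - strand): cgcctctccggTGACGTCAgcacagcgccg

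The shorter CRE core TGACG, which the element above contains, was in promoters of 20 of 32 members (62.5%) and of 37.2% of tested genes. The AP-1 site TGANTCA was in 3 members, Csrnp1, Tnfaip3 and Zfp36l1 (9.38%), and 5.58% of tested genes, the NFkB site in 10 members (31.2%) and 11.9%, and the heat shock element GAANNTTCNNGAA in none of the 32 and 0.604%. Among all promoters the shares were 20.8% for TGACG, 7.81% for the AP-1 site, 8.46% for the NFkB site and 0.603% for the heat shock element. A CArG box, the site of serum response factor, was in promoters of 3 members (9.38%) and of 1.45% of tested genes (1.63% of all promoters). It is in capitals in the windows of those 3 members.
Egr2 (chr10:67537787-67537816, + strand): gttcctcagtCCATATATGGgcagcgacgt
Zfp36 (chr7:28379267-28379296, - strand): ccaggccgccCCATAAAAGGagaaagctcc
Dusp5 (chr19:53529053-53529082, + strand): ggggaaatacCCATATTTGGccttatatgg

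Members had 1.41 promoter windows per gene on average and tested genes 1.27, and a match of letters is a description of the sequence and not evidence of binding. In the 3′ UTRs of GENCODE M21 (GRCm38), the AU-rich heptamer TATTTAT, a letter pattern of short-lived mRNAs, was in 22 of 37 members (59.5%) and in 3203 of 10262 tested genes with a 3′ UTR (31.2%). It is in capitals in windows of the 4 members below, which are among those with the largest replicate differences described later.
Fos (chr12:85477107-85477128, + strand): ttcaattTATTTATtaagatgg
Dusp1 (chr17:26506162-26506183, - strand): tggtcctTATTTATttaacacc
Jun (chr4:95049082-95049103, - strand): ttgtgcaTATTTATaatagcgt
Atf3 (chr1:191170341-191170362, - strand): tattactTATTTATcccagtat

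The deleted microRNA, miR-146a-5p, is shown with its seed (bases 2 to 8) in capitals, from RefSeq (GRCm38.p6), followed by members whose 3′ UTR holds a match to the whole seed, in capitals, written on the strand of the gene.
miR-146a-5p (chr11:43374435-43374456, - strand): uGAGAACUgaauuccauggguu
Maff (chr15:79359045-79359066, + strand): tctgaataaagtcaAGTTCTCt
Nr4a3 (chr4:48084272-48084293, + strand): gtcaacctggacagAGTTCTCt
Plk2 (chr13:110400507-110400528, + strand): tgcattgactctgaAGTTCTCt

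With the other 7-base form (GTTCTCA) counted too, 6 of 37 members had a site, Btg2, Dnajb1, Egr3, Maff, Nr4a3 and Plk2 (16.2%), against 2243 of 10262 tested genes (21.9%). The 8-base form AGTTCTCA was in none of the members and in 5.04% of tested genes. Members were also compact genes, with a median span of 5162 bases and 3 exons, against 23032 bases and 9 exons over 10307 tested protein-coding genes.

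Libraries held 9003343 to 26386684 reads by the scaling totals recovered from the RPKM steps. Fcer2a (CD23), a marker used to tell B-cell subsets apart, was at 604 to 751 RPKM in T2 and FO against 6.74 to 56.4 RPKM in T1 and MZ. The targeted Mir146 was listed at 0 in 14 libraries and had 1 read in each WT FO library, so these mRNA libraries hardly check the genotype. The libraries of WT replicate 1 and KO replicate 1 stood apart in the members' levels, as given below, and results that rest on them are also given without them. The median RPKM over the 36 tested members was from 6.66 (KO MZ replicate 1) to 94.9 (WT MZ replicate 1), whereas the median over all tested genes stayed between 7.91 and 9.27 RPKM. In bulk RNA, fewer expressing cells and less RNA per cell cannot be told apart.

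Members with the largest differences between replicates are given first. In Fosb (ENSMUSG00000003545, chr7:19302696-19310051, - strand), RPKM in T1, T2, MZ and FO were 774, 503, 473 and 376 in WT replicate 1 and 180.4, 219, 85.5 and 21 in WT replicate 2. In KO they were 1.17, 65.4, 2.05 and 3.19 in replicate 1 and 289, 269, 163 and 117 in replicate 2. Thus WT replicate 1 was the highest and KO replicate 1 the lowest library of each subset, and the groups overlapped, with KO replicate 2 above WT replicate 2 in each subset. Fos (ENSMUSG00000021250, chr12:85473890-85477273, + strand) had the same order, with 1069, 760.5, 663 and 639 RPKM in WT replicate 1 and 478, 509.6, 192 and 138 in WT replicate 2. The KO values were 19.1, 159, 4.03 and 36.2 RPKM in replicate 1 and 606, 590.5, 333 and 290.4 in replicate 2. From its highest library (WT T1 replicate 1) to its lowest (KO MZ replicate 1), Fos spanned 265-fold.

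Atf3 and Jun, both partners of AP-1 proteins, followed. Atf3 (ENSMUSG00000026628, chr1:191170296-191218039, - strand), a factor of the integrated stress response, was at 86.5, 46.1, 194 and 34.3 RPKM in T1, T2, MZ and FO of WT replicate 1 and at 16.9, 10.7, 21.8 and 0.215 in WT replicate 2. In KO it was at 0.135, 1.47, 0.859 and 0.203 RPKM in replicate 1 and 28.8, 18.8, 44.8 and 6.16 in replicate 2. It was thus at 1.47 RPKM or less in all of KO replicate 1 and in WT FO replicate 2. Jun (ENSMUSG00000052684, chr4:95049034-95052222, - strand) was at 252, 178, 381 and 275 RPKM in WT replicate 1 and 114, 114, 105 and 50.002 in WT replicate 2. Its KO levels were 8.03, 37.1, 2.37 and 19.9 RPKM in replicate 1 and 161, 162, 178 and 97.9 in replicate 2, so that the 2 KO MZ libraries were the farthest apart.

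Hspa1b (ENSMUSG00000090877, chr17:34956436-34959238, - strand) was at 17.5, 30.6, 52.8 and 81.9 RPKM in WT replicate 1 and 10.1, 21.6, 12.4 and 16.8 in WT replicate 2. The KO libraries held 0.415, 2.35, 0.396 and 2.03 RPKM in replicate 1 and 27.1, 64.5, 28.6 and 52.8 in replicate 2. Hspa1a (ENSMUSG00000091971, chr17:34969190-34972156, - strand) was lower, at 3.78, 6.69, 16.3 and 21.9 RPKM in WT replicate 1 and 2.26, 3.70, 2.76 and 2.70 in WT replicate 2. It was at 0.182, 0.338, 0 and 0.121 RPKM in KO replicate 1, thus listed at 0 in the MZ library, and at 7.10, 16.6, 7.85 and 10.8 RPKM in KO replicate 2. For both, KO replicate 2 was above WT replicate 1 in T1 and T2 and below it in MZ and FO. These genes are near-identical copies and only uniquely aligned reads were kept, so the split of reads between them is uncertain.

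Dusp1 (ENSMUSG00000024190, chr17:26505590-26562128, - strand), whose promoter and 3′ UTR sequences are given above, was at 78.9, 108, 143 and 129.9 RPKM in WT replicate 1 and 45.5, 87, 48.7 and 18.2 in WT replicate 2. In KO it was at 0.830, 24.8, 1.76 and 3.62 RPKM in replicate 1 and 66.1, 119, 76.3 and 62.1 in replicate 2. Thus KO T1 replicate 1 held the lowest Dusp1 level of all libraries. Plk2 (ENSMUSG00000021701, chr13:110395046-110400844, + strand), a polo-like kinase, was at 152, 92.9, 13.5 and 53.5 RPKM in WT replicate 1 and 48.9, 52.9, 6.85 and 3.77 in WT replicate 2. KO libraries held 4.28, 13.1, 0.317 and 1.04 RPKM in replicate 1 and 63, 66.5, 12 and 29.1 in replicate 2. Plk2 was thus at most 13.5 RPKM in MZ, whereas in FO it ranged from 1.04 to 53.5 RPKM.

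**Figure D1:**
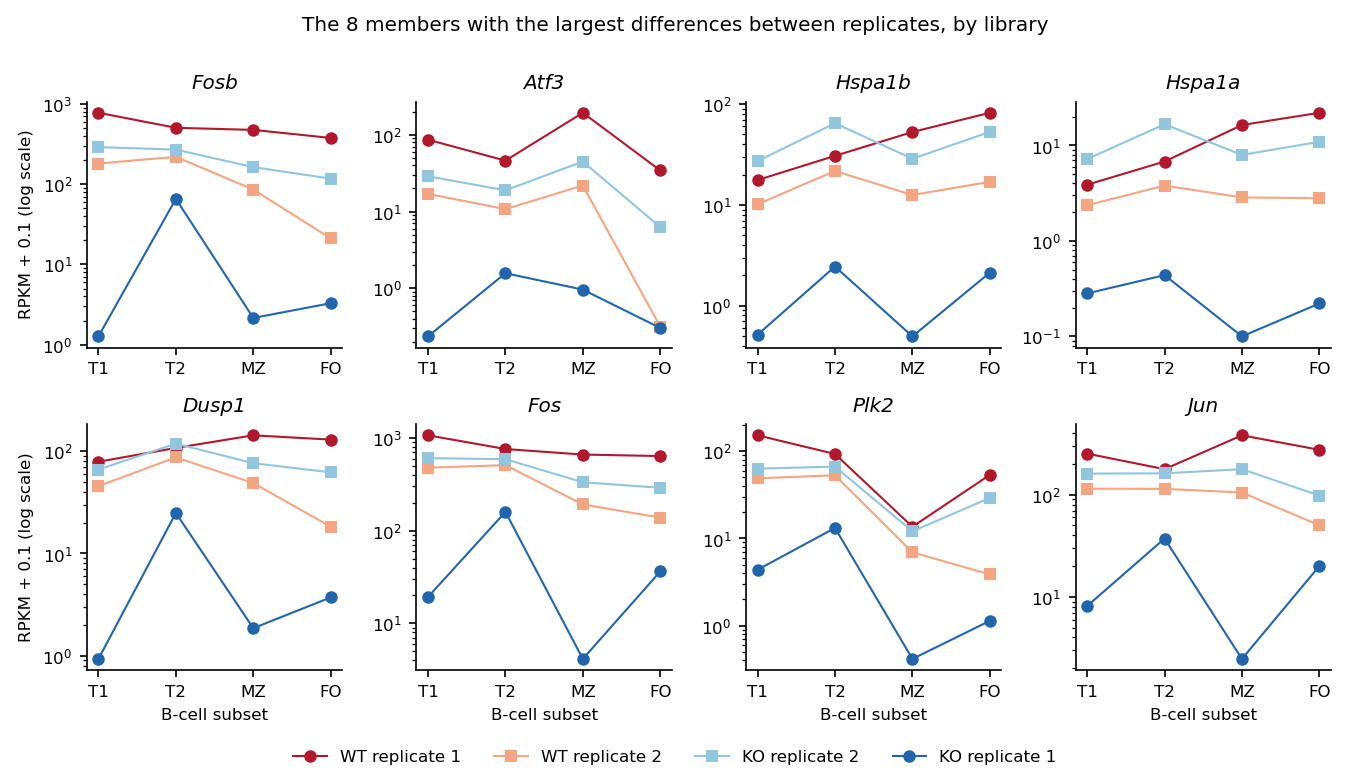
RPKM plus 0.1 (log axis) of 8 members in T1, T2, MZ and FO, with 1 line for each set of libraries. KO replicate 1 lies lowest in most panels, at 4.03 RPKM for Fos in MZ, and WT replicate 1 mostly highest.

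At the other end, 4 tested members varied least between replicates. Btg2 (ENSMUSG00000020423, chr1:134075170-134079120, - strand) was at 280.2, 207, 135 and 161 RPKM in T1, T2, MZ and FO of WT replicate 1 and 202, 175, 107 and 119 in WT replicate 2. Its KO levels were 121, 145, 105 and 106 RPKM in replicate 1 and 205, 179, 129 and 138 in replicate 2. Its order was WT replicate 1 highest in each subset, but its range was narrow. Zfp36l1 (ENSMUSG00000021127, chr12:80107754-80113013, - strand) was at 113, 104, 129.8 and 144 RPKM in WT replicate 1, 87.6, 120.0, 126 and 109 in WT replicate 2, 50.8, 78.6, 66.1 and 89.97 in KO replicate 1 and 83.7, 115, 121 and 104 in KO replicate 2. The growth arrest genes Gadd45a and Gadd45b were as even. Gadd45b (ENSMUSG00000015312, chr10:80930073-80932204, + strand) was at 44.6, 21.9, 27.1 and 20.9 RPKM in WT replicate 1, 28.6, 25.8, 30.5 and 14.4 in WT replicate 2, 24, 15.2, 23.1 and 15.8 in KO replicate 1 and 29.5, 27.5, 32.3 and 19.2 in KO replicate 2. Gadd45a (ENSMUSG00000036390, chr6:67035096-67037457, - strand) was at 11.4, 12.1, 16.9 and 9.41 RPKM in WT replicate 1, 9.25, 10.3, 15.1 and 7.13 in WT replicate 2, 4.01, 8.68, 6.47 and 5.53 in KO replicate 1 and 8.56, 10.5, 16 and 8.55 in KO replicate 2. KO replicate 1 was the lowest library of each subset for Gadd45a. From WT replicate 1 to KO replicate 1, as means over the 4 subsets on the log2(RPKM + 0.5) scale, the fold was 1.42 for Gadd45b, 1.59 for Btg2, 1.74 for Zfp36l1 and 1.96 for Gadd45a, and it was 90.5 for Fosb, 69.2 for Atf3, 28.5 for Fos and 26.8 for Dusp1.

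The remaining members mostly had their extremes in the same libraries. Junb ranged from 14.2 RPKM in KO MZ replicate 1 to 512 RPKM in WT FO replicate 1, Egr1 from 3.32 RPKM in KO MZ replicate 1 to 444 RPKM in WT T1 replicate 1, and Nr4a1 from 5.5 RPKM in KO T1 replicate 1 to 439.9 RPKM in WT MZ replicate 1. Cd69 ranged from 11.3 to 365 RPKM, Zfp36 from 87.9 to 703 RPKM, Jund from 7.13 to 294 RPKM and Dusp5 from 1.198 to 98.9 RPKM, each from KO MZ replicate 1 to WT T1 replicate 1. Rhob ranged from 4.31 to 202 RPKM, Ppp1r15a from 3.57 to 225 RPKM, Egr2 from 0.817 to 32.4 RPKM, Plk3 from 4.24 to 20.1 RPKM and Nr4a2 from 0.0662 to 14.4 RPKM, each from KO T1 replicate 1 to WT MZ replicate 1. These genes thus had their lowest level in a KO replicate 1 library and their highest in a WT replicate 1 library. Maff (0.315 to 15.1 RPKM), Tnfaip3 (6.94 to 43.1 RPKM), Nfkbid (35.5 to 173 RPKM), Egr3 (9.74 to 105 RPKM), Csrnp1 (14.9 to 77.1 RPKM), Ier5 (58.6 to 162 RPKM) and Nr4a3 (0.181 to 4.75 RPKM) did so as well. Dnajb1 had its highest level, 90.3 RPKM, in KO T2 replicate 2 and its lowest, 14.9 RPKM, in KO MZ replicate 1.

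Differences between replicates were taken within each group as replicate 1 minus replicate 2 of log2(RPKM + 0.5). They are single differences between 2 libraries and carry no test. In WT, the median difference over the 36 tested members was 0.75 (T1), 0.23 (T2), 1.06 (MZ) or 1.66 (FO), whereas in KO it was -2.21 (T1), -1.31 (T2), -2.34 (MZ) or -1.27 (FO). The direction was thus opposite in the 2 genotypes, and over all genes tested these medians lay between -0.06 and 0.05. Replicate 1 was higher in WT for all 36 members in T1 and FO, 23 in T2 and 35 in MZ. Replicate 2 was higher in KO for 35 members in T1 and MZ, 36 in T2 and 34 in FO.

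WT replicate 1 was higher by over 1 on this scale for 12 members in T1, where 2.19% of all genes tested were, for 3 in T2 (2.61%), for 20 in MZ (1.69%) and for 28 in FO (1.62%). KO replicate 2 was higher by over 1 for 26 members in T1 (6.47%), again 26 in T2 (2.58%), 29 in MZ (2.28%) and, lastly, 20 in FO (1.71%). In KO, 19 members did so in all 4 subsets, and WT replicate 1 did so for 3 members, Fosb, Atf3 and Maff. The T2 libraries of WT were therefore the most alike and those of KO MZ the least.

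**Figure D2:**
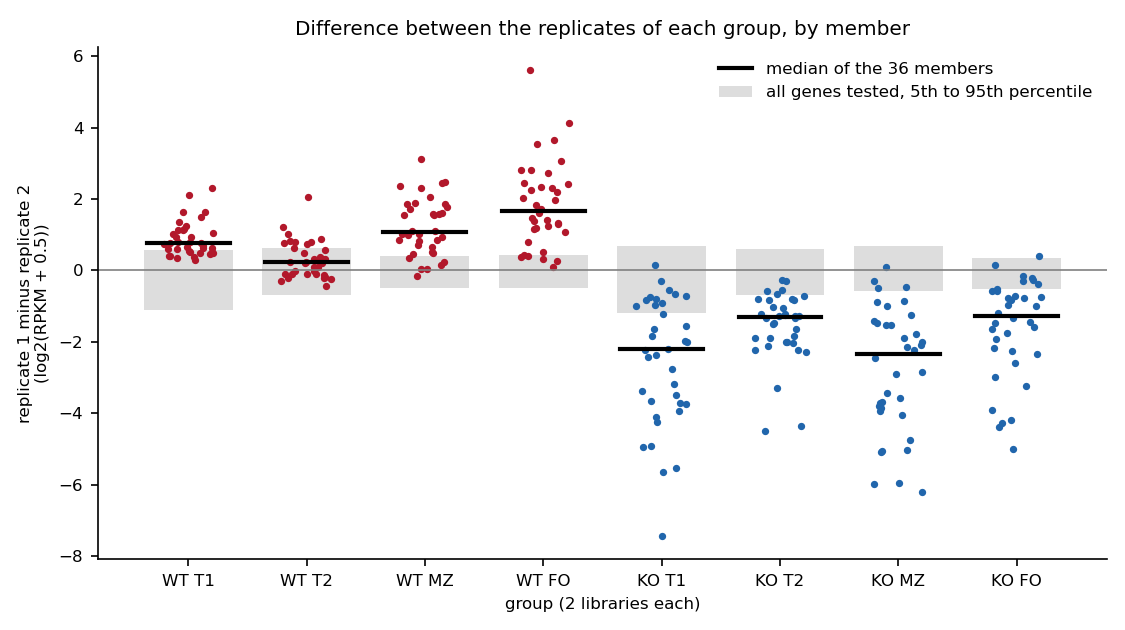
Replicate 1 minus replicate 2 in log2(RPKM + 0.5) in each group, with 1 point per tested member and a grey band from the 5th to the 95th percentile of all tested genes. Members lie mostly above 0 in WT (median 1.66 in FO) and below 0 in KO (median -2.34 in MZ).

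By role, the heat shock and AP-1 genes differed most and the mRNA decay genes least. The mean absolute difference between replicates over the 8 groups had a median of 2.83 (log2) in the 3 heat shock genes, 2.58 in the 7 AP-1 and related genes and 1.99 in Cd69 and Rhob. It was 1.56 in the 7 EGR, NR4A and CSRNP genes, 1.45 in the 3 phosphatases and 1.04 in the 4 feedback regulators. It was 0.90 in Ier2 and Ier5, 0.81 in the 5 growth arrest and stress genes and 0.42 in the 3 mRNA decay genes. Roles were not uniform, since Plk2 (2.66) and Dusp1 (2.79) stood far above Gadd45b (0.43) and Dusp2 (0.57), and Dnajb1 (1.08) stood below its Hsp70 partners.

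Among the 4 libraries of a subset, WT replicate 1 was the highest for 32 of 36 members in T1 and 18 in T2, and for 34 in MZ and 36 in FO. KO replicate 1 was the lowest for 35 in T1 and MZ, 36 in T2 and 31 in FO. For 16 members both held in all 4 subsets, as they did for 73 of 12507 tested genes (0.584%). As set means over the 4 subsets, 28 of 36 members followed the order WT replicate 1, KO replicate 2, WT replicate 2, KO replicate 1. KO replicate 2 was above WT replicate 2 for 32 members, with a median difference of 0.48 in log2(RPKM + 0.5), and below it for Dusp2, Egr1, Nr4a3 and Zfp36l1. WT replicate 1 was above KO replicate 1 by a median of 2.59, over 4 in 7 members and under 1 in 4.

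**Figure D3:**
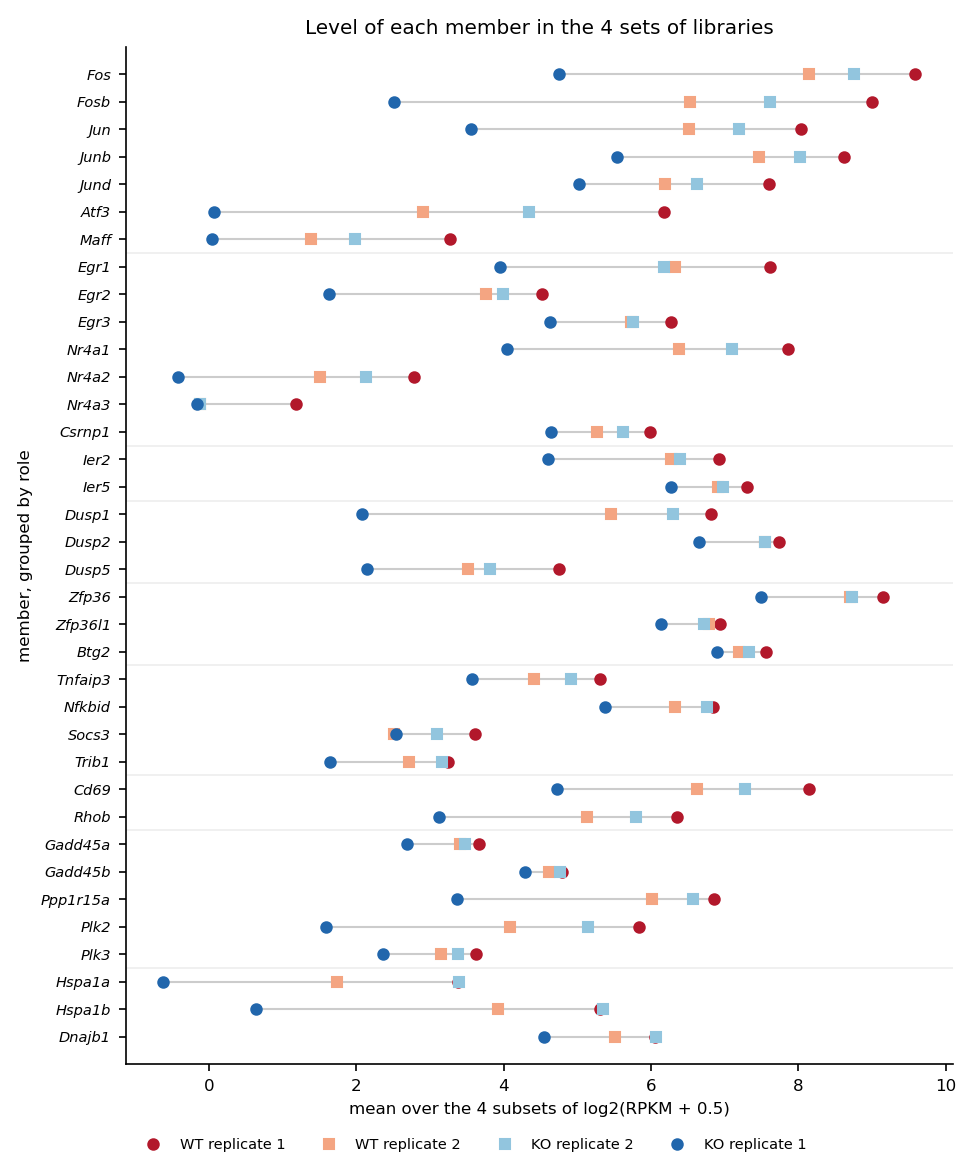
Mean log2(RPKM + 0.5) over T1, T2, MZ and FO of the 36 tested members, grouped by role, with 1 point for each of the 4 sets of libraries. The gap from WT replicate 1 to KO replicate 1 is 6.5 for Fosb and 0.503 for Gadd45b.

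The sum of squares of each member over the 16 libraries was split into subset, genotype, replicate number within genotype and the rest. Replicate number within genotype held a median of 45.4% for members and 7.39% for all genes tested, and subset held 17.8% for members and 66.5% for all genes. Genotype held 20.7% and 1.66%. Genotype compares 2 sets with 2 sets, so its share also holds the gaps between sets and is no measure of a genotype effect alone. The replicate share was the largest in 25 members and subset in 10, with the highest subset shares in Trib1 (69.6%), Dusp2 (68.8%), Dusp5 (65.2%) and Socs3 (63.9%). Members varied together, and Pearson's r over the 16 libraries, which share sets and subsets, had a median of 0.754 over 630 pairs of members and passed 0.8 in 263 pairs. The pattern most like that of Fos was that of Cd69 (r = 0.973), Jun (0.971), Zfp36 (0.967), Junb (0.965) and Fosb (0.960), and the least like it were Socs3 (0.222), Nr4a3 (0.299) and Gadd45b (0.395).

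Other gene lists were set beside the members for the same measure. Of 25 other tested early response genes, 7 had WT replicate 1 highest and KO replicate 1 lowest in all subsets (Klf4, Klf6, Per1, Pim1, Rgs1, Rgs2 and Sik1), and the list's medians were 0.50 for WT replicate 1 minus 2 and -1.06 for KO. Of 12 other heat shock and chaperone genes 2 had this order (medians 0.21 and -0.66), of 15 B-cell activation genes 2 (0.04 and -0.25) and of 19 upstream kinases and factors none (0.03 and 0.01). Macrophage markers, from cells that could remain in a sort, had this order in none of 12, with medians of -0.65 in WT and -1.11 in KO. Their summed RPKM was 17.3 to 96.6 in WT replicate 1, 26.3 to 113 in WT replicate 2, 21.9 to 139 in KO replicate 1 and 33.05 to 129 in KO replicate 2. The highest sum of each set was in MZ, where most of it was Mpeg1, at 72.4 to 108 RPKM against 6.62 to 18.6 RPKM in the other subsets. By their medians, macrophage, T and NK cell, plasma cell and erythroid markers were thus lower in replicate 1 in both genotypes. The members shared this direction in KO but not in WT. Of 6 plasma cell markers, 1 (Irf4) had the full order above. The WT sum of the plasma cell list was lower in replicate 1 only for T1 (687 against 3061 RPKM). Elsewhere in WT it was higher, as for FO (163 against 95.2 RPKM). Neutrophil markers had the same signs as the members, with medians over 5 tested genes of 0.21 in WT and -1.28 in KO, none of the 5 had the full order above, and 4 of the list's 6 genes were at 0 in some library. Their summed RPKM was 0.723 to 58.2 in WT replicate 1, 4.74 to 32.7 in WT replicate 2, 2.69 to 53.7 in KO replicate 1 and 23.9 to 66.2 in KO replicate 2. Ribosomal protein genes held 5.42% to 15.3% of the summed RPKM, with T1 at the low end and MZ at the high end. The defining macrophage marker C1qa was at 0.0861 to 6.29 RPKM. The part of other cell types in the members' differences was not tested.

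Between subsets, few members passed the test of limma over all genes, in which called genes passed an adjusted p of 0.05, a log2 difference of 1 in size and a mean of 1 RPKM. From T1 to T2 with the genotypes pooled, Socs3 rose, and 5.43% of all tested genes were called. Socs3 (ENSMUSG00000053113, chr11:117966079-117970047, - strand), a feedback inhibitor of cytokine receptors, was at 3.31, 8.91, 25.3 and 23.8 RPKM in T1, T2, MZ and FO of WT replicate 1 and 2.19, 9.07, 8.38 and 4.06 in WT replicate 2. In KO it was at 1.39, 5.24, 7.12 and 13.1 RPKM in replicate 1 and 2.90, 13.4, 10.3 and 9.85 in replicate 2. It was thus higher in T2 than in T1 in every set, by a log2 difference of 1.69 ± 0.52 (SE), adjusted p = 0.034. The call ended without any 1 of 6 libraries, the 4 of WT T1 and T2, KO T1 replicate 1 and KO T2 replicate 2 (log2 1.37 to 1.82, adjusted p by limma 0.059 to 0.118), and no member was called without the KO replicate 1 libraries. The median over members was 0.40, with 4 members at an unadjusted p under 0.05 (Dusp5, Egr3, Gadd45b and Socs3).

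Since same-numbered T1 and T2 libraries of a genotype deviated together, the test was also made with genotype and replicate number as a block, where 5.91% of genes and 8 members were called. Rises were called in Socs3, Nr4a1, Dusp1, Ppp1r15a, Egr3 and Hspa1b, and falls in Dusp5 and Trib1. Dusp5 was at 98.9, 29.9, 12.9 and 12.3 RPKM in T1, T2, MZ and FO of WT replicate 1, 48.9, 16.8, 5.77 and 2.65 in WT replicate 2, 13.8, 6.40, 1.198 and 1.81 in KO replicate 1 and 65, 15.6, 6.35 and 4.83 in KO replicate 2. T1 was its highest subset in each set.

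Nr4a1 (ENSMUSG00000023034, chr15:101254269-101274795, + strand), an orphan nuclear receptor induced by antigen receptor signals, was at 101, 182, 439.9 and 358 RPKM in WT replicate 1, 52.8, 199, 146 and 30.1 in WT replicate 2, 5.5, 45.1, 13.9 and 18.3 in KO replicate 1 and 75.8, 215, 189 and 114 in KO replicate 2. T2 was above T1 in each set, but the T1 and T2 libraries overlapped. Ppp1r15a (ENSMUSG00000040435, chr7:45522916-45526268, - strand), the phosphatase subunit GADD34 of the stress response, was at 63.4, 83.8, 225 and 146 RPKM in WT replicate 1, 37.8, 89.8, 104 and 47.1 in WT replicate 2, 3.57, 31.2, 4.94 and 15.4 in KO replicate 1 and 53.3, 127, 147 and 80.7 in KO replicate 2. Egr3 (ENSMUSG00000033730, chr14:70077203-70082614, + strand), a zinc finger factor induced by antigen receptor signals, was at 52.6, 77.1, 81.5 and 105 RPKM in WT replicate 1, 37.2, 95.3, 51.7 and 41.9 in WT replicate 2, 9.74, 42.1, 17 and 48.3 in KO replicate 1 and 40.4, 73.9, 50.3 and 53.9 in KO replicate 2. Both were higher in T2 in each set, and in both KO T1 replicate 1 was the lowest of all libraries.

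In the blocked limma fit, Nr4a1 differed by 1.79 ± 0.50 (SE), adjusted p = 0.024 and Ppp1r15a by 1.46 ± 0.43 (SE), adjusted p = 0.029. Dusp5, the nuclear phosphatase of ERK, differed by -1.57 ± 0.22 (SE), adjusted p = 0.001 (limma). Within WT replicates 1 and 2 and KO replicates 1 and 2, T2 lay above T1 by 0.78, 1.07, 1.64 and 1.24 for Hspa1b. For Dusp1 these differences were 0.45, 0.93, 4.25 and 0.84. Several of the differences moved when 1 library was left out of the fit without a block. The set of that library is then in only 1 of the compared subsets, so the gap between sets enters the difference. Without KO T1 replicate 1 the log2 difference was 0.88 for Nr4a1, 0.20 for Dusp1, 0.53 for Ppp1r15a, 0.70 for Egr3 and -0.047 for Hspa1b. Without KO T1 replicate 2 it was 2.71 for Nr4a1, 3.03 for Dusp1, 2.39 for Ppp1r15a, 2.41 for Hspa1b, -1.03 for Dusp5 and -0.57 for Trib1. Without KO T2 replicate 2 it was 1.06 for Dusp1, 0.96 for Ppp1r15a and 0.053 for Hspa1b, and without KO T2 replicate 1 it was 2.31 for Hspa1b. For Socs3 it stayed between 1.37 and 2.01. Without the KO replicate 1 libraries the blocked fit called Dusp5 and Trib1 of the members, and without those of WT replicate 1 it called Dusp5, Hspa1b, Nr4a1 and Socs3. In all 4 sets alike, T2 lay above T1 for 12 members, against 31.1% of all genes, and below for 4 (Dusp2, Dusp5, Gadd45b and Trib1), against 16.6%.

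From T2 to MZ, 3 members fell, Ier2, Dusp2 and Trib1, where 10.8% of all genes were called. By limma-voom on the recovered reads 2 of them were called, Ier2 and Dusp2. These fits held no block, although over the members same-numbered T2 and MZ libraries deviated together (r = 0.747 in WT and 0.706 in KO). More members were called with a block, as given further below. Dusp2 (ENSMUSG00000027368, chr2:127336159-127338376, + strand), a nuclear phosphatase of lymphocytes, was at 444, 244, 108 and 176 RPKM in T1, T2, MZ and FO of WT replicate 1 and 305, 264, 91.4 and 163 in WT replicate 2. In KO it was at 147, 145, 49.9 and 93.5 RPKM in replicate 1 and 290.2, 254, 99.9 and 161 in replicate 2. The 4 MZ libraries were below all T2 libraries, and the log2 difference was -1.39 ± 0.29 (SE), adjusted p = 0.0031 (limma). This call stayed without any 1 library, with adjusted p from limma up to 0.014.

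Ier2 (ENSMUSG00000053560, chr8:84661331-84662852, - strand) was at 192, 124, 63.5 and 141 RPKM in WT replicate 1 and 99.3, 134, 31.7 and 81 in WT replicate 2. KO libraries held 16.7, 51.5, 7.74 and 47.1 RPKM in replicate 1 and 117, 131, 37.9 and 84.5 in replicate 2. MZ was the lowest subset in each set, and the log2 difference from T2 was -1.86 ± 0.64 (SE), adjusted p = 0.038 (limma). It was no longer called without WT T2 replicate 1 or 2, WT MZ replicate 1 or 2, KO T2 replicate 2 or KO MZ replicate 1 (log2 -2.11 to -1.31, adjusted p by limma 0.0503 to 0.143).

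Trib1 (ENSMUSG00000032501, chr15:59648350-59657099, + strand), a pseudokinase, was at 29.2, 11, 3.04 and 6.17 RPKM in WT replicate 1 and 20.8, 9.51, 2.92 and 2.03 in WT replicate 2. Its KO levels were 6.09, 4.09, 1.13 and 1.39 RPKM in replicate 1 and 25.5, 10.2, 3.90 and 4.72 in replicate 2. It was highest in T1 in each set, and its log2 difference from T2 to MZ was -1.504 ± 0.53 (SE), adjusted p = 0.041 (limma). The call was lost without any 1 of the T1, T2 or MZ libraries of WT, without KO T2 replicate 2 or without KO MZ replicate 1 (log2 -1.55 to -1.15, adjusted p by limma 0.051 to 0.145). No member was called from T2 to MZ without the WT replicate 1 libraries, which left 1 library in each WT group, and 3 were called without those of KO replicate 1.

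The median over members was -0.50 from T2 to MZ, with 26 of 36 lower, and 6 members had an unadjusted p under 0.05. Btg2 had an adjusted p of 0.035 (limma), but its log2 difference of -0.57 was under the fold criterion. In all 4 sets, 13 members were lower in MZ than in T2 (Btg2, Cd69, Dusp2, Dusp5, Egr1, Fos, Fosb, Ier2, Ier5, Jund, Plk2, Trib1 and Zfp36), against 29.7% of all genes, and Gadd45b and Nr4a3 were higher, against 32.3%. Plk2 had a log2 difference of -3.02 ± 1.29 (SE), adjusted p = 0.082 (limma) and was not called without a block. With a block it was called, at -3.02 ± 0.46 (SE), adjusted p = 0.00067 (blocked limma fit). Falls in Cd69, Dusp5, Egr1, Fos, Junb and Jund were called with the block too, beside Dusp2, Ier2 and Trib1. Over all genes, same-numbered T2 and MZ libraries deviated together less (r = 0.097 in WT and 0.434 in KO). Alternative settings, leaving out 1 library aside, called 1052 to 1618 of all genes. Nr4a3 passed the filter only through WT MZ, where its mean was 2.66 RPKM (4.75 and 0.565 RPKM in the 2 replicates).

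Within genotypes, Dusp2 was the called member from T2 to MZ in WT (log2 -1.35 ± 0.42 (SE), adjusted p = 0.033, limma) and in KO (log2 -1.44 ± 0.42 (SE), adjusted p = 0.028, limma), where 10.6% and 9.44% of genes were called. The WT call was lost without any 1 of the 4 WT T2 and MZ libraries (log2 -1.47 to -1.22, adjusted p by limma 0.093 to 0.145). The KO call was lost without KO MZ replicate 1 (log2 -0.94) or KO T2 replicate 2 (-1.03). In the test of the difference itself, KO minus WT, no member passed for T2 to MZ (0.008% of genes) or for T2 to FO (0.008%), with 0 members at an unadjusted p under 0.05 in either and 0 by limma-voom on the recovered reads.

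From T2 to FO, no member was called by limma with the genotypes pooled (1.14% of genes), in WT (0.184%) or in KO (0%), and limma-voom called none either. At an unadjusted p under 0.05 there were 3 members in the pooled comparison (Btg2, Dusp5 and Trib1) and 0 in each genotype. The median was -0.45, and 15 members were lower in FO in all 4 sets (22% of all genes) while 0 were higher in all 4 (22.6%). Fosb had a log2 difference of -2.28 ± 1.87 (SE), adjusted p = 0.435 and Egr1 of -1.92 ± 0.93 (SE), adjusted p = 0.186 (limma). This comparison and that from T2 to MZ use the same T2 libraries. Over the members, same-numbered T2 and FO libraries deviated together too (r = 0.681 in WT and 0.826 in KO). With a block, limma called falls in Dusp5 (log2 -1.72 ± 0.22 (SE), adjusted p = 0.0070) and Trib1 (-1.27 ± 0.21 (SE), adjusted p = 0.012). The blocked limma fit also called Plk2 (-2.19 ± 0.46 (SE), adjusted p = 0.020) and Egr1 (-1.92 ± 0.53 (SE), adjusted p = 0.041). Over all genes, those libraries deviated together less (r = 0.076 in WT and 0.190 in KO). At most 214 of all genes were called under an alternative setting.

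**Figure D4:**
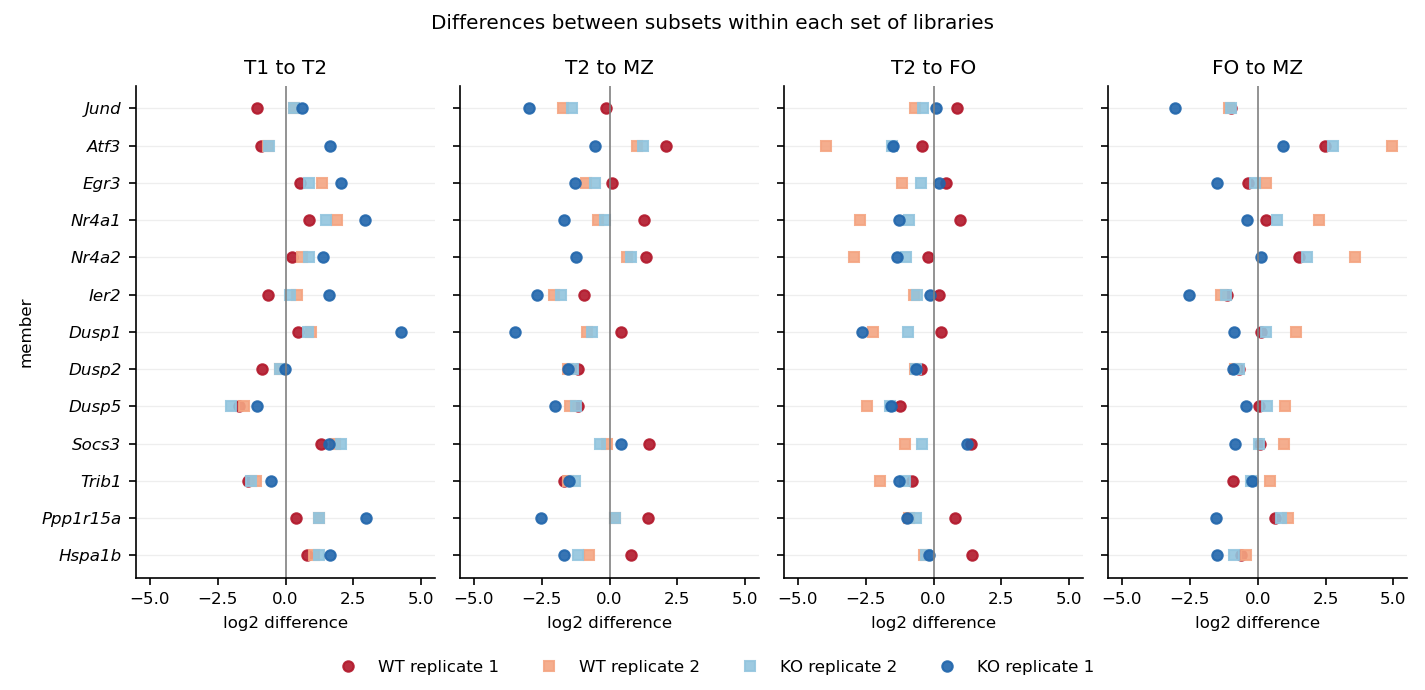
Differences between subsets in log2(RPKM + 0.5) for 13 members, with 1 point for each set of libraries and 1 panel for each change. Dusp2 lies below 0 from T2 to MZ in all sets (pooled log2 difference -1.39), and Atf3 lies above 0 from FO to MZ in all sets.

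From FO to MZ no member was called by limma (9.2% of genes) or by limma-voom, and Dusp2, Gadd45a, Gadd45b and Ier2 had an unadjusted p under 0.05. Gadd45b had an adjusted p of 0.028 (limma) at a log2 difference of 0.67, under the fold criterion. With genotype and replicate number as a block, 9.63% of genes and 4 members were called. Nr4a2 (ENSMUSG00000026826, chr2:57106830-57124003, - strand), a nuclear receptor, was at 4.42, 5.36, 14.4 and 4.61 RPKM in T1, T2, MZ and FO of WT replicate 1, 2.59, 4.18, 6.80 and 0.116 in WT replicate 2, 0.0662, 0.985, 0.128 and 0.0772 in KO replicate 1 and 2.44, 4.78, 8.52 and 2.09 in KO replicate 2. Jund (ENSMUSG00000071076, chr8:70698949-70700616, + strand), an AP-1 factor, was at 294, 141, 129 and 258 RPKM in WT replicate 1, 94.4, 117, 34.8 and 72.7 in WT replicate 2, 38.4, 58.4, 7.13 and 62.1 in KO replicate 1 and 114, 142, 54.5 and 107 in KO replicate 2. In each set MZ was above FO for Nr4a2 and below it for Jund, and the MZ and FO libraries overlapped in both. For Nr4a2, KO replicate 1 had 7 reads in MZ and 7 in FO, so its RPKM there differed by library depth alone, and WT FO replicate 2 had 11. Atf3 had 10 reads in WT FO replicate 2 and 9 in KO FO replicate 1. The differences of these 2 genes thus rest in part on very low counts.

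Atf3 was higher in MZ by 2.79 ± 0.58 (SE), adjusted p = 0.0044 and Nr4a2 by 1.76 ± 0.45 (SE), adjusted p = 0.011 (blocked limma fit). Ier2 differed by -1.54 ± 0.30 (SE), adjusted p = 0.0029 and Jund by -1.51 ± 0.34 (SE), adjusted p = 0.0064 (blocked limma fit). Leaving out 1 library of the fit without a block lets the gap between sets enter here as well. In that fit, the log2 difference of Atf3 was 1.39 without WT FO replicate 2, 1.53 without KO MZ replicate 2 and 4.19 without WT FO replicate 1. That of Nr4a2 was 0.80 without KO MZ replicate 2, 0.99 without WT FO replicate 2 and 2.72 without KO MZ replicate 1. Without KO MZ replicate 1, Ier2 differed by -0.98 and Jund by -0.80. The blocked calls of Atf3, Nr4a2 and Ier2 remained without the libraries of WT replicate 1 or of KO replicate 1, and that of Jund did not remain without KO replicate 1. In all 4 sets, 6 members were higher in MZ than in FO, against 35.3% of all genes, and 7 were lower, against 29.7%.

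The median difference from FO to MZ was near 0 over the members (-0.05). Other lists were tested in the same fits. Among 25 other early response genes, 1 was called higher and 7 lower from T2 to MZ, led by Sgk1 (log2 -2.43), Klf2 (-2.09) and Dusp4 (-1.90), and 2 higher and 4 lower from FO to MZ. Klf2, a factor of lymphocyte quiescence and trafficking, was lower in MZ than in FO as well (-2.05). Of 12 other heat shock and chaperone genes, Bag3 was called, higher in MZ than in T2 (1.52) and than in FO (1.41), and of 19 upstream kinases and factors none was called in these comparisons.

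Markers of other cell types also differed between subsets. Of 12 macrophage and monocyte markers, 3 were called higher from T1 to T2 (median of the list 1.34), 2 higher and 3 lower from T2 to MZ (-1.19), 6 lower from T2 to FO (-2.10) and 2 higher from FO to MZ (1.01). Mpeg1 led from T2 to MZ (log2 2.66) and from FO to MZ (3.26), and the complement gene C1qc was higher in T2 than in T1 (1.64). From T2 to MZ, 4 of the 12 had a positive difference. C1qa went the other way from Mpeg1, from 2.08 to 6.29 RPKM in T2 to 0.531 to 2.79 RPKM in MZ. So did Vcam1, from 3.04 to 5.95 RPKM in T2 to 0.651 to 2.26 RPKM in MZ. Of 5 neutrophil markers, S100a9 was called higher from T1 to T2 (median 1.37), S100a8 lower from T2 to MZ (-1.34), both lower from T2 to FO (-1.49) and none from FO to MZ (0.30). In both lists the median had the sign of the members' median in the first 3 of these changes. Of 6 plasma cell markers, 5 were called lower from T1 to T2 (-2.14), led by Igj (-5.63), 1 higher and 1 lower from T2 to MZ (-0.10) and again from FO to MZ (0.44), and 1 lower from T2 to FO (-0.31). Of 3 erythroid and platelet markers, 1 was called, lower from T2 to MZ (median -0.44), and of 9 T and NK cell markers none was called in these 4 comparisons (medians from -0.71 to 0.53). The part of other cell types in the members' subset differences was not tested.

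Between KO and WT, members were lower in KO on average, and no member was called by limma or limma-voom in any subset. The log2 difference was negative for 36 of 36 members in T1, T2 and MZ and for 34 in FO, all but Gadd45b and Socs3, and the median was -1.22 (T1), -0.60 (T2), -1.54 (MZ) or -0.68 (FO). Of all genes tested, 0.04% were called for T1, 0.048% for T2, 0.064% for MZ and 0.032% for FO. Members with an unadjusted p under 0.05 numbered 0 in each subset. Across the 4 subsets the median was -1.12, 9 members had an unadjusted p under 0.05 and none was called (0.072% of genes). Fosb differed by -2.71 ± 1.32 (SE), adjusted p = 0.642, Egr1 by -1.90 ± 0.66 (SE), adjusted p = 0.550 and Dusp2 by -0.55 ± 0.21 (SE), adjusted p = 0.567 (limma). The fit across subsets took the 4 libraries of a set as independent, although over the members they deviated together (r = 0.640 to 0.911). Its SEs and p-values are therefore likely too small for a comparison of 2 sets with 2 sets. For Fosb, the set means of replicates 1 and 2 differed by 2.47 in WT and -5.12 in KO.

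Of the markers of other cell types, none was called between KO and WT across subsets, and the list medians were 0.06 for macrophage, 1.22 for neutrophil, 0.27 for T and NK cell and 0.16 for plasma cell markers. The neutrophil markers thus moved the other way from the members, with 4 of 5 at an unadjusted p under 0.05, and their part was not tested. These p-values also take the libraries of a set as independent.

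These medians over the members rested on which replicate libraries were used. Without the KO replicate 1 libraries they were -0.22 (T1), 0.02 (T2), -0.15 (MZ), 0.01 (FO) and -0.06 across subsets. Without those of WT replicate 1 they were -0.88 in T1, -0.51 in T2, -0.81 in MZ, 0.13 in FO and -0.54 across subsets. Each of these fits left 1 library in every group of 1 genotype, and both were chosen after seeing the data. In the replicate 2 libraries alone, with subset and genotype as additive terms, the median across subsets was 0.48, thus in the opposite direction. There, 2 members were among the 0.056% of genes called, both higher in KO: Hspa1a (log2 1.67, adjusted p = 0.024 by limma) and Hspa1b (log2 1.43, adjusted p = 0.013 by limma). Each genotype is then a single set, and the 4 libraries of a set share its number and deviated together, so these p-values compare 1 set with 1 set and not the genotypes.

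**Figure D5:**
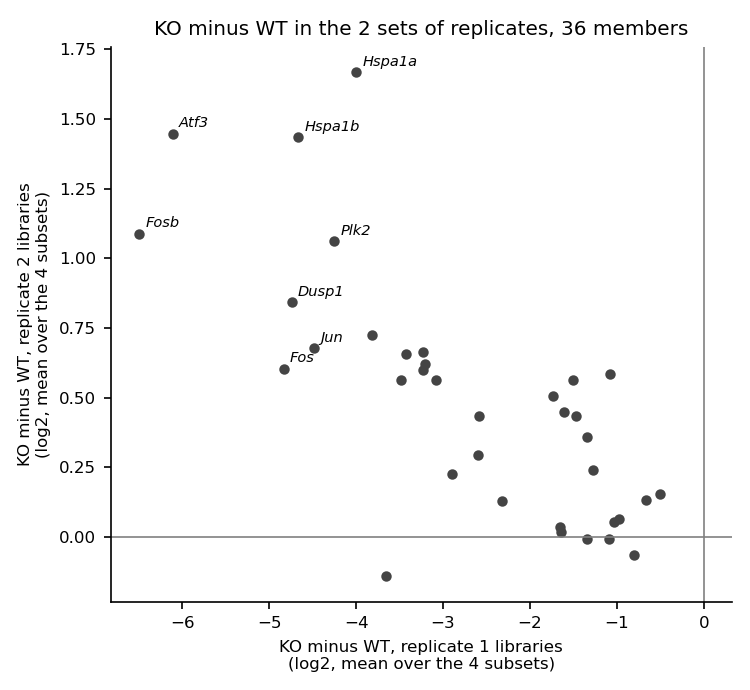
KO minus WT in log2(RPKM + 0.5), as means over the 4 subsets, in the replicate 1 libraries (horizontal) and the replicate 2 libraries (vertical), with 1 point per tested member. All members lie left of 0 in replicate 1 (median of WT minus KO 2.59) and 32 lie above 0 in replicate 2.

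Ier3, a stress-induced early gene, was the member not tested, at 0 to 0.636 RPKM (0 to 10 reads), and no fold is given for it. Of the 36 tested members, 35 had a mean over 1 RPKM in all 8 groups, and 27 were over 1 RPKM in all 16 libraries.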

How the data were processed

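Sorted B-cells of 4 subsets and both genotypes gave 16 mRNA libraries, 2 per group. After removing adapter and low-quality reads, the authors mapped the others with TopHat (mm10), retained unique alignments and computed the deposited RPKM of each gene with Perl scripts. The submitters' processing notes also name DESeq and edgeR, and for none of these tools is a version given in the sources used here. Reads were recovered as whole multiples of the value of 1 read (within 0.01) for all genes above 0.

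Values were compared as log2(RPKM + 0.5), which understates changes of low genes, with limma 3.58.1 in R 4.3.3 (8 groups, 16 libraries, variance trend), and p-values were adjusted by Benjamini-Hochberg over all 12507 genes with a group mean over 1 RPKM. The fit was also run on simulated reads, in which gaps between sets were put only into genes without a set change. Those gaps were mostly smaller than the largest of the members, so the simulation does not cover them and no result here rests on it. Called genes had an adjusted p under 0.05, a log2 difference past 1 and, in either group compared, a mean above 1 RPKM, without the fold criterion for differences of differences. The study's own test of counts was replaced because the table holds RPKM. The p-values use 1 estimate of the spread per gene, from the 2 libraries of each of the 8 groups, moderated across genes. The paper calls the replicates biological, and the labels name no pool for them. Same-numbered libraries of a genotype deviated together over all genes (r = 0.128 in WT and 0.394 in KO for T1 and T2, and 0.453 and 0.336 for MZ and FO), so a block was added for these comparisons.

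Values in every library are given for members called in any comparison without a block. They are also given for the 8 tested members with the largest mean absolute replicate difference and the 4 with the smallest. Nr4a1, Ppp1r15a, Egr3, Dusp5, Nr4a2 and Jund, which were among those called with the block alone, and Egr1 and Nr4a3 were singled out after their values were seen. Cd69, Junb, Zfp36 and Egr1, also called with the block alone, are given as ranges. The members and lists were chosen with earlier results of these data known. Promoters and miR-146a came from RefSeq (GRCm38.p6), and 3′ UTRs and gene positions from GENCODE M21 (GRCm38, the build of mm10). Alternatives were another pseudocount, no filter, median-ratio scaling, no fold criterion, only the groups compared, a block, and leaving out each library. Further alternatives, chosen with the data seen, were limma-voom on the recovered reads and the removal of a set of libraries. A block that paired WT replicate 1 with KO replicate 2 (crossed numbers) was likewise chosen with the data seen.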

Additional observations from a re-analysis of the deposited data

How the results depend on the processing

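Counts of called members did not move at pseudocounts of 0.1 and 1 or under median-ratio scaling. From T1 to T2 (1 member called), the count was 0 without a filter on low values, with limma-voom or without the KO replicate 1 libraries, 8 with the replicate block, 2 and 4 with the block and without the KO or WT replicate 1 libraries, and 8 in the replicate 2 libraries alone. From T2 to MZ (3), it was 1 without a filter, 2 with limma-voom, 0 without the WT replicate 1 libraries, 10 with the replicate block, 6 and 8 with the block and without the KO or WT replicate 1 libraries, and 9 in replicate 2 alone. From T2 to FO (0), it was 4 with the replicate block and 4 in replicate 2 alone. From FO to MZ (0), it was 1 with no fold criterion, 4 with the replicate block, also without the KO or WT replicate 1 libraries, and 9 in replicate 2 alone. In WT, T2 to MZ (1) gave 0 without a filter, 4 with only the groups compared, 5 with the block, 2 without the KO and 0 without the WT replicate 1 libraries, and T2 to FO (0) gave 1 with the block. In KO, T2 to MZ (1) gave 0 without a filter, 0 with only the groups compared, 12 with the block and 0 without the WT replicate 1 libraries.

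Leaving out 1 library gave 0 to 2 called members from T1 to T2, 1 to 8 from T2 to MZ, 0 to 3 from FO to MZ, 0 to 1 from T2 to MZ in WT and 0 to 4 in KO, and 0 in the other comparisons. The lone library of a group was then assumed to vary like the other groups. In the fit without a block, Hspa1b from T1 to T2 (log2 1.18) ranged from -0.047 without KO T1 replicate 1, a change of sign, to 2.41 without KO T1 replicate 2. The gap between sets enters these values, and within each set Hspa1b was higher in T2. Over all genes, the pairing did not pass for T2 with MZ or FO (r = 0.097 and 0.076 in WT against 0.434 and 0.190 in KO, where 2 pairs are too few for the check). It did not pass for KO with WT either, where MZ (-0.227) and FO (-0.157) were below -0.1. Over the members alone, r for T2 with MZ and FO was 0.747 and 0.681 in WT and 0.706 and 0.826 in KO. Without a block, the tests of these changes therefore keep the gaps between sets in their error. A block with crossed numbers paired WT replicate 1 with KO replicate 2 and was chosen after the data were seen. It called 3 members between KO and WT across subsets, and 16 of all genes. Its pairing follows the order of sets seen in the members, which lowers their error in advance. Its calls are therefore no test of the genotype. Over all genes, the counts moved by over 1.5 times from T2 to FO (143 called, 0 to 214, and 15 to 192 without 1 library), also in WT alone (23, 0 to 69, and 0 to 107), in KO from T2 to MZ (1181, 604 without the KO replicate 1 libraries), in WT (1323, 800 without the WT replicate 1 libraries) and in KO against WT (4 to 9 per comparison, 0 to 16, and 1 to 35 without 1 library). The cause of these changes was not tested. With 2 libraries per group, and sets that differ this much, differences of the members between groups had large errors.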

Other observations

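Of the 73 tested genes with WT replicate 1 highest and KO replicate 1 lowest in all 4 subsets, 16 were members, 11 were in the other lists and 46 were in none. The 3 below were picked from those 46 after their values were seen, for being of known function and well above the filter, and no test was made.

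The ER chaperone co-factor Dnajb9 belongs to the unfolded protein response. Dnajb9 was at 101, 99.8, 87.6 and 48.4 RPKM in T1, T2, MZ and FO of WT replicate 1 and at 62.1, 72, 58 and 16.6 in WT replicate 2. Its KO values were 18.7, 38, 15.1 and 10.1 RPKM in replicate 1 and 83.3, 78.7, 73.5 and 39 in replicate 2. Gem encodes a small GTPase induced in activated lymphocytes. Gem was at 62.4, 54.8, 61.5 and 41.3 RPKM in T1, T2, MZ and FO of WT replicate 1 and at 25.7, 32.1, 24.7 and 9.42 in WT replicate 2. Its KO values were 9.11, 16, 9.47 and 7.91 RPKM in replicate 1 and 33.1, 42.2, 34.7 and 21.7 in replicate 2. Zbtb10 encodes a zinc finger repressor. Zbtb10 was at 16.9, 15, 11.9 and 16.6 RPKM in T1, T2, MZ and FO of WT replicate 1 and at 3.8, 5.36, 3.02 and 4.89 in WT replicate 2. Its KO values were 3.5, 4.31, 2.71 and 4.03 RPKM in replicate 1 and 4.27, 5.9, 3.19 and 5.33 in replicate 2. All 3 also had KO replicate 2 above WT replicate 2 in every subset, as most early response members did in their set means.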
